A study of Rattus norvegicus and Mus musculus with 3 samples.

Results

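The genes described here are those of the major histocompatibility complex (MHC), the machinery that loads it with peptide, and the T cell receptor complex that reads it, in hippocampus. They were taken by name: every gene whose symbol starts with RT1- (the rat MHC) or H2- (the mouse MHC), and 12 further genes, namely B2m, Tap1, Tap2, Tapbp, Cd74, Ciita, Nlrc5, Cd3e, Cd3d, Cd3g, Cd4 and Cd8a. That gave 52 of the 30438 genes in each rat table, 40 of them RT1- genes, and 52 of the 34714 genes in the mouse table, 40 of them H2- genes. By their names the rat set splits into 30 class I or class I-like genes, 10 class II genes, 7 genes of peptide loading or MHC regulation and 5 T cell genes. The mouse set holds 30 class I, 9 class II, 7 loading or regulatory and 5 T cell genes, and H2-Ke6, which sits in the MHC but encodes a hydroxysteroid dehydrogenase.

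Bulk hippocampal RNA was sequenced from 1 2VO rat, 1 Sham rat and 1 mouse titled as the wild type of the 3xTg-AD model. The labels give the genotype of all of them as WT, an age of 3 to 4 months for both rats and of 6 months for the mouse. In this field 2VO denotes permanent occlusion of both common carotid arteries and Sham the operation without it; the sources used here name neither the rat strain nor the interval after surgery. The mouse carries no transgene by its label, and the transgenic members of its line were not analysed here.

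MHC class I molecules are made of an RT1 or H2 heavy chain and beta-2 microglobulin, and show peptides from inside the cell to CD8 T cells. Class II molecules are made of an alpha and a beta chain that travel with the invariant chain CD74, and show peptides taken up from outside to CD4 T cells. In brain, class II is borne mainly by microglia, macrophages at the brain's borders and cells that enter from blood, whereas class I is also found on endothelium and, at low level, on neurons.

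Each table lists 1 normalized value per gene whose unit no source used here names; it is called a unit below. Each group is 1 library. No difference therefore has a replicate check, no test was possible and the depth is unknown. Differences are given as log2 ratios, 2VO over Sham, after adding 1 unit to each value, which shrinks the differences of low genes, and folds of 1.5 and 2 are read on that same scale. A gene counts as measured where its mean over both rats was at least 1 unit. Of the 52 rat members 28 were measured. A bulk value cannot tell fewer cells of a type from less RNA per cell. The 8 listed genes of hippocampal neurons were above 1 unit in all 3 libraries, but not at equal levels. Prox1, a granule cell factor, was 14.8 units in 2VO, 17.2 in Sham and 17.8 in the mouse, Snap25 was 614, 454 and 678, and Wfs1, a gene of CA1 neurons, was 111, 169 and 23.4.

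The 18 measured class I genes had no common direction, with log2 ratios from -0.68 to 0.61. Cd74, Cd3e, Cd4 and the 3 measured class II genes were lower in the 2VO library. Of the 28 measured members 6 were at least 1.5-fold lower in 2VO, a share of 21.4%, where 0.967% of all 13550 measured genes were that much lower. RT1-Da, 1 of these 6 and of the 3 class II genes, passed the filter through its Sham value alone. RT1-N2, of class I, was another of the 6. RT1-M1-2 alone was at least 1.5-fold higher, where 1.51% of all measured genes were. Under upper-quartile, median-of-ratios or lowess scaling the split was 0 higher and 6 lower. At 2-fold, 2 members were lower and 0 higher, beside 0.199% and 0.244% of all genes. The median log2 ratio over the measured members was -0.12, with 11 higher and 17 lower. Over all measured genes the median was 0.04, with 58.7% higher and 41.3% lower. Genes of 1 to 20 units, the range of all measured members but B2m, were at least 1.5-fold higher in 1.8% and lower in 1.1% of cases. Of all 52 members, measured or not, 17 were higher in 2VO, 29 lower and 6 listed at 0 in both. This count includes 24 members under the filter, whose directions are not read. The share over all genes without the filter was not counted.

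**Figure D1:**
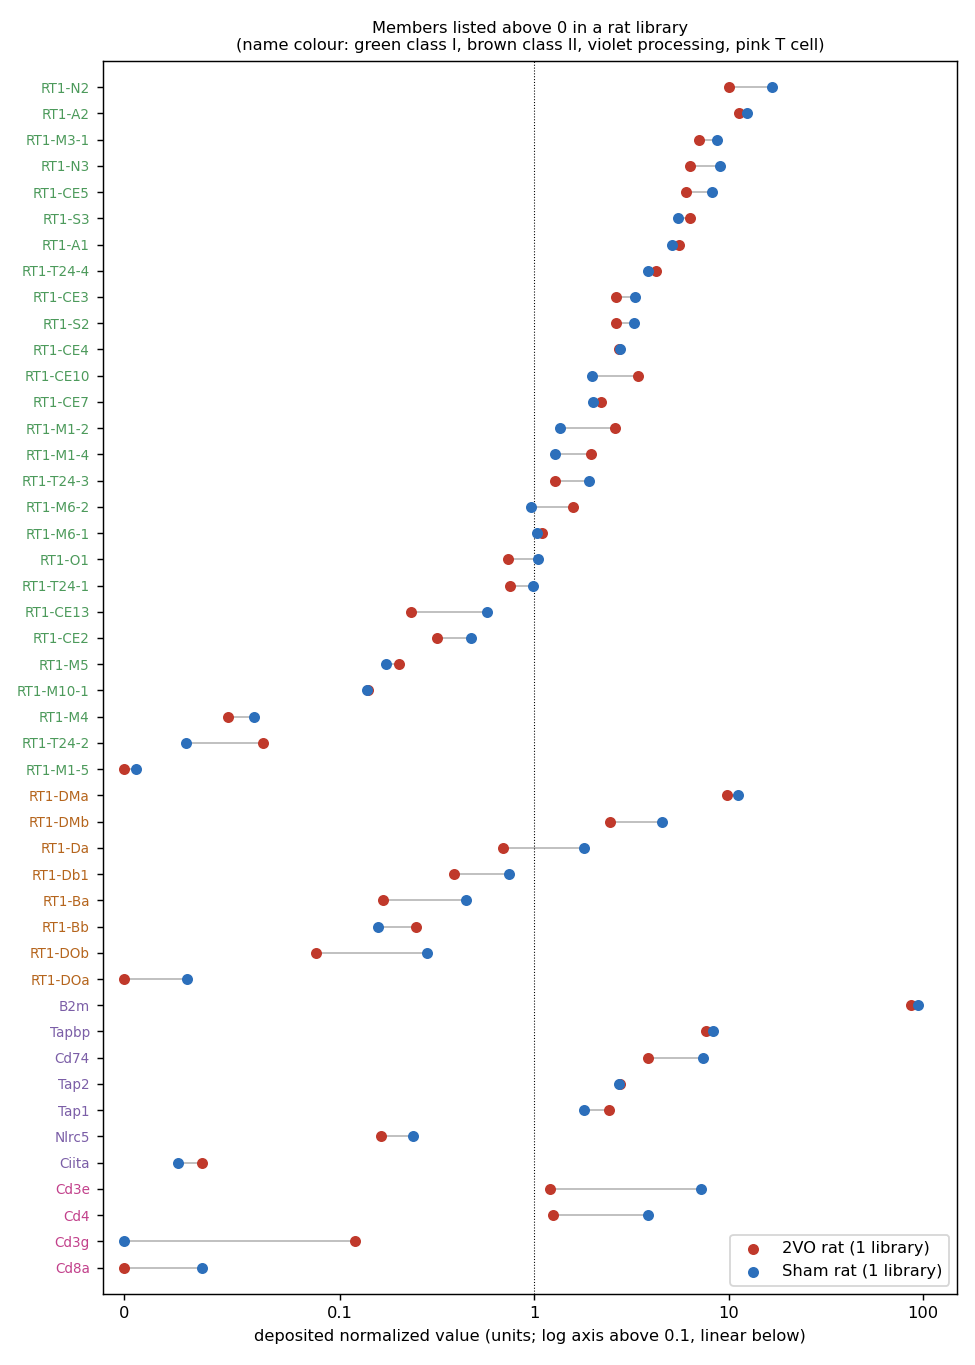
Deposited values of the rat members listed above 0 in at least 1 rat library, with 1 point for the 2VO library (red) and 1 for the Sham library (blue) per gene, on an axis that is logarithmic above 0.1 units and linear below. Class I genes differ in both directions, whereas Cd3e (1.20 in 2VO and 7.15 in Sham) and Cd4 (1.25 and 3.83) stand furthest apart among genes above 1 unit in both rats.

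The classical class I heavy chains RT1-A1 and RT1-A2, which present peptide to CD8 T cells, hardly differed. RT1-A2 was 11.3 units in 2VO and 12.3 in Sham, a log2 ratio of -0.12, and RT1-A1 was 5.54 and 5.10, a log2 ratio of 0.10. The values of this pair summed to 16.8 units in 2VO and 17.4 in Sham. Over the whole class, 18 of 30 genes were measured, 9 of them higher in 2VO and 9 lower, with a median log2 ratio of 0.015 and a mean of -0.015. That median is too near 0 to carry a direction, and it turned negative under each of the 4 other scalings tried. The promoter of RT1-A2, shown because it carries 3 of the motifs known from class I genes, runs as follows in the RefSeq rat assembly GRCr8 (chr20:4872621-4872920, plus strand). Capitals mark, from the left, a kappaB site, an X2 box core, a Y box core on the minus strand, a Y box core on the plus strand and an X2 box core on the minus strand.
RT1-A2: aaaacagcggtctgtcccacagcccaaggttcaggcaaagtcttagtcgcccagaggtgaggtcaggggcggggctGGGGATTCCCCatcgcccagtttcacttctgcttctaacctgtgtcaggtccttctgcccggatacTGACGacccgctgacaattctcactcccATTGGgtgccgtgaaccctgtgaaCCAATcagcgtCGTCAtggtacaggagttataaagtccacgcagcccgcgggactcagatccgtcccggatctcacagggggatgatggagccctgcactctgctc
The kappaB site binds NF-kB factors, and the X and Y boxes form the module through which Nlrc5 and Ciita act. The letters searched for kappaB, GGGGA and TCCCC with any 1 base between them, read the same on both strands and occur in 0.0717% of 33469 rat promoters of the same length, 300 bases. They occurred in 5 of the 26 class I promoters available, those of RT1-A1, RT1-A2, RT1-CE4, RT1-CE10 and RT1-CE13. The values of these genes did not share a direction, and a link between the letters and the values was not tested.

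Genes of the RT1-CE cluster, which encode further class I chains, were divided. RT1-CE10 was 3.39 units in 2VO and 1.97 in Sham, a log2 ratio of 0.56 and the second highest among the measured members. RT1-CE5 went the other way, at 6.04 in 2VO and 8.17 in Sham, a log2 ratio of -0.38. The rest lay closer: RT1-CE3 was 2.64 in 2VO and 3.28 in Sham, RT1-CE4 was 2.72 and 2.76, and RT1-CE7 was 2.21 and 2.00. RT1-CE13 and RT1-CE2 stayed below 1 unit in both rats, and RT1-CE6 was listed at 0 in both. Summed over the 8 genes the cluster stood at 17.5 units in 2VO and 19.2 in Sham. These genes are near copies of each other, and in GRCr8 the spans of RT1-CE4, RT1-CE5, RT1-CE6 and RT1-CE7 overlap. No source used here says how reads that match several of them were assigned, so the single values are uncertain and the sum is given beside them. The same holds for RT1-S2 with RT1-O1 and for RT1-T24-2, RT1-T24-3 and RT1-T24-4, whose spans overlap as well. Nor is the assignment stated for reads that match both RT1-A1 and RT1-A2, or both RT1-N2 and RT1-N3. The library kit does not keep the strand of the RNA, so overlapping genes on opposite strands cannot be told apart either.

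RT1-N2 and RT1-N3, a pair of non-classical class I genes, were the class I genes furthest below Sham. RT1-N2 was 10.04 units in 2VO and 16.7 in Sham, a log2 ratio of -0.68, and RT1-N3 was 6.33 and 8.99, a log2 ratio of -0.45. RT1-N2 ranked 84th from the lowest ratio among the 13550 measured genes, and RT1-N3 265th. Together they summed to 16.4 units in 2VO and 25.7 in Sham. The whole of class I summed to 81.3 and 92.5, so most of the gap in that sum lay in this pair. RT1-S3, whose mouse counterpart Qa-1 (H2-T23) shows leader peptides to natural killer cell receptors, was 6.33 in 2VO and 5.45 in Sham. Its neighbour RT1-S2 was 2.61 and 3.26. RT1-O1, just under the filter, was 0.728 and 1.04. In the T24 group RT1-T24-4 was 4.20 in 2VO and 3.86 in Sham, RT1-T24-3 was 1.28 and 1.90, and RT1-T24-1 was 0.748 and 0.985. RT1-T24-2 was below 0.1 units in both rats and RT1-T18 was listed at 0 in both.

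Of 5 measured RT1-M genes 4 were higher in 2VO, where 58.7% of all measured genes were, and RT1-M3-1 was lower. RT1-M1-2 was 2.60 units in 2VO and 1.36 in Sham, a log2 ratio of 0.61, the highest of all measured members. RT1-M1-4 was 1.96 and 1.27, RT1-M6-2, which passed the filter through its 2VO value, was 1.57 and 0.960, and RT1-M6-1 was 1.10 and 1.03. In mouse, genes of the M1 and M10 families are known from sensory neurons of the vomeronasal organ. RT1-M3-1, whose mouse counterpart H2-M3 presents N-formylated peptides, was 6.998 in 2VO and 8.65 in Sham. The other 5 RT1-M genes were at 0.200 units or less in both rats, and RT1-M2 was listed at 0 in both.

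Among the partner and loading genes of class I, 0 of 4 measured members passed 1.5-fold. B2m, the beta-2 microglobulin gene and the most abundant member, was 87.0 units in 2VO and 93.5 in Sham, a log2 ratio of -0.10. Tapbp, the tapasin gene, which tethers empty class I to the peptide transporter, was 7.61 and 8.32. The transporter itself was 2.43 in 2VO and 1.80 in Sham for Tap1, a log2 ratio of 0.30, and 2.75 and 2.72 for Tap2. The promoters of B2m and Tapbp are shown because all 4 of these loading genes carry the interferon-stimulated response element, searched as GAAA and GAAA with any 2 bases between, in their 300 bases; it is found in 3.92% of rat promoters (B2m at chr3:129549080-129549379, plus strand; Tapbp at chr20:4967828-4968127, minus strand; both GRCr8). In B2m the capitals mark that element, an X2 box core and a Y box core on the minus strand, and in Tapbp a pair of overlapping elements.
B2m: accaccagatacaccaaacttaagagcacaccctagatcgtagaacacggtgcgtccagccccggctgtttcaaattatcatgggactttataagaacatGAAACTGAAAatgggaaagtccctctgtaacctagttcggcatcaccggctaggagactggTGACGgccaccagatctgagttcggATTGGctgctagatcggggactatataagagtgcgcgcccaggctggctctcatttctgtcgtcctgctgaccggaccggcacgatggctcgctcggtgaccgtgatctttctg
Tapbp: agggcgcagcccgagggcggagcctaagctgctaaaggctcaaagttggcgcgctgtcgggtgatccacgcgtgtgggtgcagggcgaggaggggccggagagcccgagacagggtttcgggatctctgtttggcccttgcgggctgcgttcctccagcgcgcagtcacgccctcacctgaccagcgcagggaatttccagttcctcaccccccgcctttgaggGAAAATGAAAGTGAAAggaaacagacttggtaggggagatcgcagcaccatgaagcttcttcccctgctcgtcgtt
Interferon-stimulated genes, which commonly carry this element, were taken from a list of 16. They were lower in 2VO in 13 of 14 measured members, where 41.3% of all measured genes were, with a median log2 ratio of -0.23. Ifit3, Ifi27, Bst2 and Irf7 lay furthest from 0 among them, at 0.460, 64.7, 3.14 and 1.53 units in 2VO and 2.04, 40.3, 5.46 and 2.64 in Sham. Ifit3 and another listed gene, Oas1a, were below 1 unit in 2VO and passed the filter through their Sham values alone, so they could count only as lower. The log2 ratios of B2m, Tapbp, Tap1 and Tap2 ran from -0.11 to 0.30, with 2 lower and 2 higher.

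Around class I loading, 12 genes of peptide supply and heavy chain assembly were all measured, with a median log2 ratio of -0.07. Of these, 5 were higher and 7 lower in 2VO, beside 58.7% and 41.3% of all measured genes. Psmb8, an immunoproteasome subunit, was the 1 gene past 1.5-fold, at 2.51 units in 2VO and 4.53 in Sham. Over all measured genes 0.967% were at least 1.5-fold lower. Psmb9, which sits beside Tap1 and belongs to the same particle as Psmb8, went the other way at 3.46 and 2.74. Psme2, of the proteasome activator, was 10.2 and 13.9, and Psmb10 was 12.05 and 15.1. The folding chaperones Calr and Canx were 182 and 93.2 units in 2VO, against 192 and 89.3 in Sham.

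**Figure D2:**
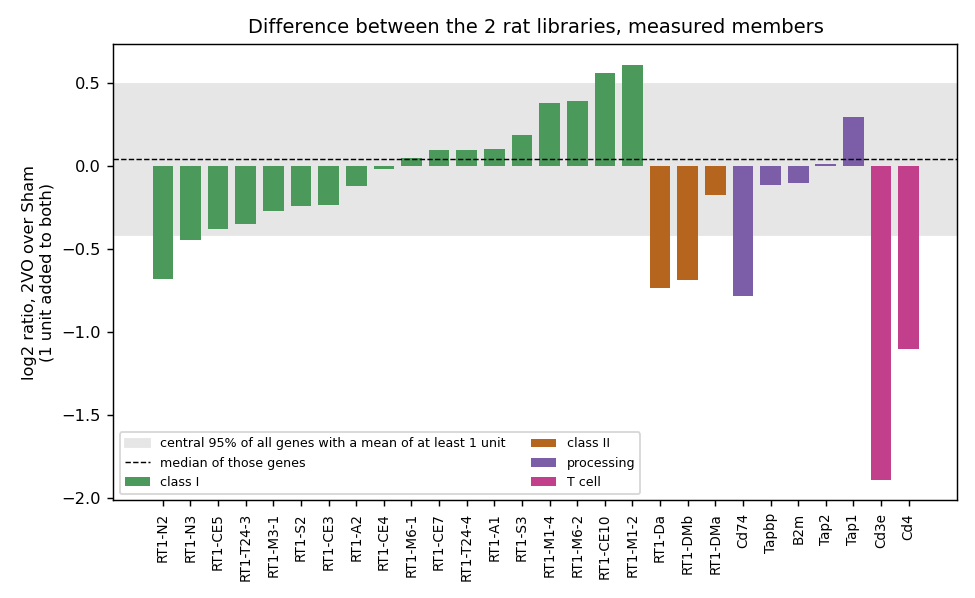
Log2 ratios, 2VO over Sham, after adding 1 unit to each value, for the 28 measured members, coloured by class; each bar is the difference between 1 library and 1 library. The grey band holds the central 95% of all 13550 measured genes, from -0.41 to 0.50, and 7 bars reach below it and 2 above it.

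The coactivators of MHC transcription gave little signal. Nlrc5, the coactivator of class I genes, was 0.163 units in 2VO and 0.237 in Sham, and Ciita, the coactivator without which class II genes are not transcribed, was 0.0359 and 0.0249. Both were far below the filter of 1 unit, so their ratios are not read. Factors that bind the X and Y boxes or the interferon elements were measured in 10 of 10 cases, with 0 past 1.5-fold. Of these factors 6 were higher and 4 lower in 2VO, beside 58.7% and 41.3% of all measured genes. Among the factors Rfx5 was 5.92 in 2VO and 5.60 in Sham, Nfyc was 17.0 and 14.5 and Rfxank was 5.90 and 6.83.

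Of 10 class II genes only 3 were measured, and all 3 were lower in 2VO, where 41.3% of all measured genes were. Of all 10, 7 had a lower value in 2VO, 1 a higher one and 2 were listed at 0 in both rats. The 7 genes not measured are below the filter, so their directions are not read. RT1-Da, the alpha chain of the rat counterpart of HLA-DR, was 0.687 units in 2VO and 1.81 in Sham, a log2 ratio of -0.73. It passed the filter through its Sham value alone. Its beta chain RT1-Db1 was 0.384 in 2VO and 0.737 in Sham, both under the filter. In the second class II molecule the alpha chain RT1-Ba was 0.166 in 2VO and 0.447 in Sham, while the beta chain RT1-Bb was 0.246 and 0.156. RT1-Bb was the 1 class II gene with a higher value in 2VO. RT1-Db2 and RT1-Ha were the genes at 0. The 5 chains of both molecules, RT1-Db2 included, summed to 1.48 units in 2VO and 3.15 in Sham. All values of these chains in 2VO were under 1 unit.

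Cd74, the invariant chain that guides class II through the cell, was 3.86 units in 2VO and 7.35 in Sham, a log2 ratio of -0.78. The 2VO value was 0.525 of the Sham value. RT1-DMa and RT1-DMb encode the endosomal molecule that exchanges the invariant chain remnant for peptide. RT1-DMb was 2.45 in 2VO and 4.55 in Sham, a log2 ratio of -0.69, whereas RT1-DMa was 9.79 and 11.2, a log2 ratio of -0.18. The chains of its modulator were near 0: RT1-DOb was 0.0888 in 2VO and 0.279 in Sham, and RT1-DOa was listed at 0 in 2VO and at 0.0293 in Sham. Cd74, RT1-Da and RT1-DMb ranked 56th, 66th and 80th from the lowest ratio among the 13550 measured genes.

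The promoters of RT1-Da and RT1-DOb are shown as examples of the X and Y boxes known from class II genes (RT1-Da at chr20:4515165-4515464, plus strand; RT1-DOb at chr20:4627474-4627773, minus strand; both GRCr8). Capitals mark an X1 box core, then a Y box core on the minus strand and, in RT1-DOb alone, a further Y box core on the plus strand. The X1 core reads CCTAGCAAC in both. RT1-Bb and RT1-Ha also hold an X1 core followed by a Y box core. In RT1-Db2 the X1 core lies after the annotated start and past its Y box core.
RT1-Da: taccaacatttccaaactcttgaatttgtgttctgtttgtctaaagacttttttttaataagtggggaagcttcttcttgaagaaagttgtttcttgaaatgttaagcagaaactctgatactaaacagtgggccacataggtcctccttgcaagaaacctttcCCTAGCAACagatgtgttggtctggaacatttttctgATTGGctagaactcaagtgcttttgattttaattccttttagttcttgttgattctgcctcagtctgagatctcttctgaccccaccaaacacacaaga
RT1-DOb: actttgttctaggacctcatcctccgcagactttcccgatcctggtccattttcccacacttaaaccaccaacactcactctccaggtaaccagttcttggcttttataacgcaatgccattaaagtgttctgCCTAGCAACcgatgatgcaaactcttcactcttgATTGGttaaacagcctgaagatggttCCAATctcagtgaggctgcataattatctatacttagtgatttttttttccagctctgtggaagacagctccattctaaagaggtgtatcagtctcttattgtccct
The Y box letters CCAAT were found, on either strand, in 9 of the 9 class II promoters available and in 37.5% of all rat promoters. They were found in 17 of 26 class I promoters as well. The X1 letters CCNAGNNAC were found in 5 of 9 class II promoters and in 17.7% of all, and the X2 letters TGACG in 1 of 9 and in 21.2%. RT1-DMb had no entry in the promoter table. A match describes these letters and shows no binding.

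**Figure D3:**
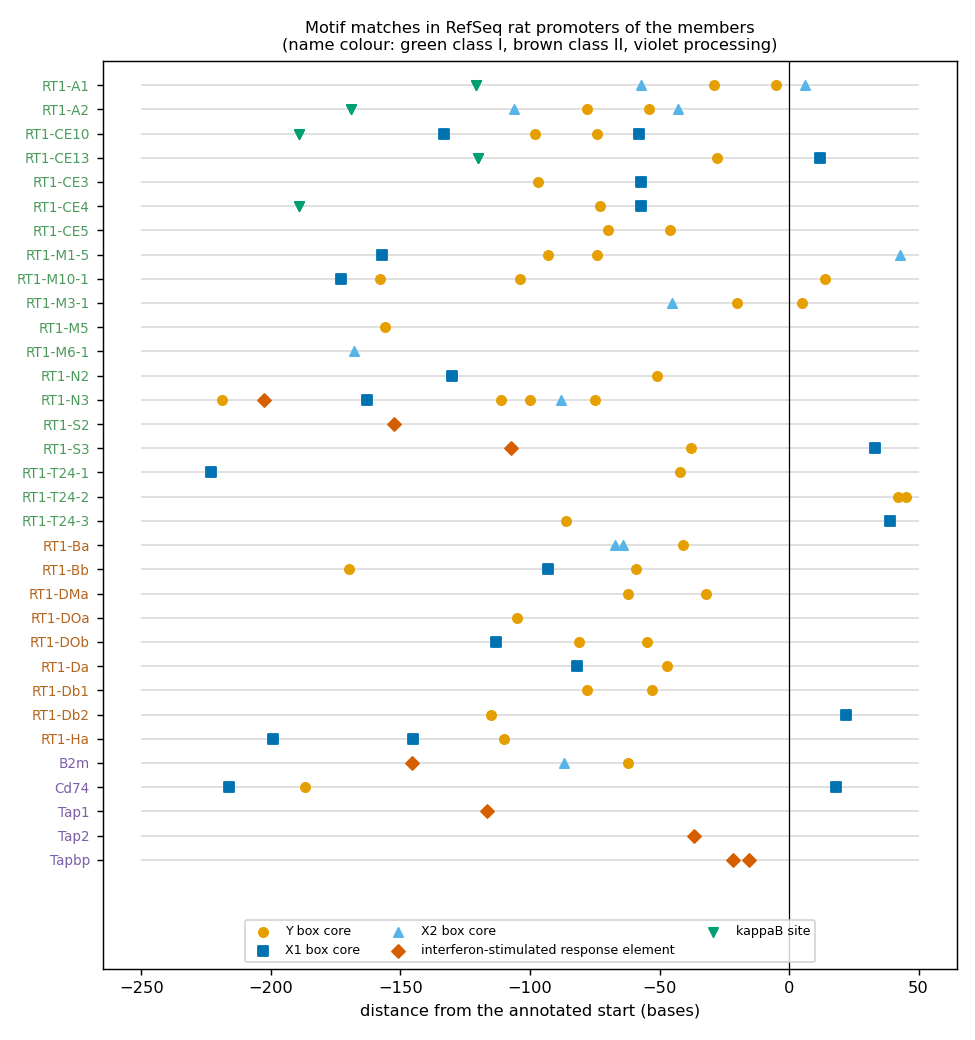
Positions of the matches to the 5 motifs, on both strands, along the 250 bases before and 50 bases after the annotated start in RefSeq rat promoters of class I, class II and loading or regulatory genes; genes without a match or a promoter entry are not drawn. Y box cores (orange circles) appear in every class II row, kappaB sites (green triangles) in 5 class I rows, and interferon-stimulated response elements (red diamonds) in the rows of B2m, Tap1, Tap2 and Tapbp and of 3 class I genes.

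Of 8 listed genes of class II peptide supply and turnover, 6 were in the rat tables and measured, all of them proteases or reductases of the endosomal path. Of these 6, 2 were higher and 4 lower in 2VO, beside 58.7% and 41.3% of all measured genes. Their median log2 ratio was -0.04. Ifi30, a lysosomal thiol reductase, was 4.37 units in 2VO and 6.37 in Sham, Ctsd was 111 and 93.2, Ctsb was 222 and 201 and Ctss, the cathepsin that trims the invariant chain, was 102 and 112. Microglial genes, from cells that can bear class II, were lower in 11 of 15 measured cases, where 41.3% of all measured genes were. Their median log2 ratio was -0.29, and the 17 listed genes summed to 198 units in 2VO and 245 in Sham. Aif1 was 13.5 and 23.8 and C1qc was 9.04 and 15.3, but P2ry12 was 8.83 and 5.49; Siglech was listed at 0 in both rats. Genes of border macrophages summed to 2.96 units in 2VO and 2.41 in Sham over 8 genes, with Mrc1 at 0.256 in 2VO and 0.260 in Sham. Genes of dendritic cells summed to 3.83 and 3.73 over 7, with Xcr1 and Cd209a listed at 0 in both rats. Of 7 choroid plexus genes 4 had higher and 3 lower values in 2VO. These directions are not read, since 5 of the 7 were under the filter and Ttr and Folr1 passed it through their 2VO values alone. The sum over the 7 genes, 6.99 units in 2VO and 1.74 in Sham, rests mostly on Ttr, at 4.75 and 0.434. Ependymal genes were higher in 2VO in 5 of 6 cases and oligodendrocyte genes in 8 of 8, where 58.7% of all measured genes were. The ependymal genes Dnah12 and Ak7 were below 1 unit in Sham and passed the filter through their 2VO values alone, so they could count only as higher. The oligodendrocyte median log2 ratio was 0.33. Blood genes summed to 261 units in 2VO and 277 in Sham. Of 6 astrocyte genes 3 were higher and 3 lower in 2VO, with Gfap at 360 units in 2VO and 778 in Sham, a log2 ratio of -1.11. Of 6 measured endothelial genes 3 were higher and 3 lower. The part of these cells in the class II values was not tested.

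Among the 5 T cell members, only Cd3e and Cd4 were measured. Cd3e, the epsilon chain of the CD3 complex, was 1.20 units in 2VO and 7.15 in Sham, a log2 ratio of -1.89, which was the 4th lowest among the 13550 measured genes. The 2VO value was 0.168 of the Sham value. Cd4, the coreceptor for class II, was 1.25 in 2VO and 3.83 in Sham, a log2 ratio of -1.10, the 22nd lowest; in rats CD4 is also borne by macrophages and microglia. In T cells the epsilon chain is made together with the delta and gamma chains. Here Cd3d was listed at 0 in both rats, and Cd3g at 0.119 in 2VO and 0 in Sham. Cd8a, the coreceptor for class I, was listed at 0 in 2VO and at 0.0362 in Sham.

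Of 24 symbols listed for other T cell genes, 20 were in the rat tables and 0 were measured. The T cell receptor chain genes Trac, Trbc1 and Trbc2 had no entry there, so their levels are unknown. Cd8b1, the mouse symbol of Cd8b, had no entry there either, but Cd8b was listed at 0 in 2VO and at 0.0434 in Sham. The values of the 20 genes summed to 6.04 units in 2VO and 5.69 in Sham, less in Sham than Cd3e alone. Among them 11 had a higher and 9 a lower value in 2VO, but all are under the filter, so their directions are not read. Lck, the kinase that phosphorylates CD3, was 0.696 in 2VO and 0.620 in Sham, Zap70, which docks on phosphorylated CD3, was 0.468 and 0.633, and Cd247, the zeta chain of the complex, was listed at 0 in 2VO and at 0.0112 in Sham. Cd2 and Cd5, surface proteins of nearly all T cells, were at 0.0201 units or less in both rats. The cytotoxic and natural killer list summed to 0.199 units in 2VO and 0.334 in Sham over 9 genes, with Nkg7, Gzma, Klrd1 and Ncr1 listed at 0 in both. B cell genes summed to 0.133 and 0.129 over 5 genes. The highest of the T cell list in 2VO were Cd7 at 0.998 in 2VO and 0.508 in Sham, Il7r at 0.806 and 0.732 and Cd6 at 0.791 and 0.533. The part of T cells in the Cd3e values was not tested.

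**Figure D4:**
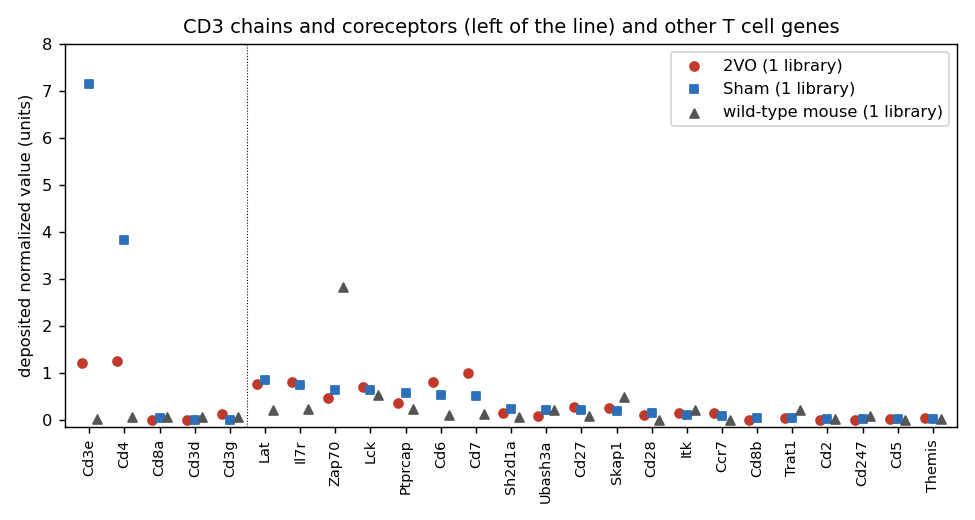
Deposited values of the CD3 chains and coreceptors (left of the dotted line) and of the 20 other T cell genes in the rat tables, in the 2VO rat (red circles), the Sham rat (blue squares) and the wild-type mouse (grey triangles). Cd3e and Cd4 of the Sham rat stand at 7.15 and 3.83 units, while every other T cell gene drawn for the rats is below 1 unit. In the mouse Zap70 stands at 2.82 units.

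Costimulatory genes, which decide whether a T cell that meets peptide is activated, were mostly low. Of 10 listed, 9 were in the rat tables and 2 were measured: Cd83 was 5.15 units in 2VO and 5.49 in Sham, and Cd274, which encodes the inhibitory ligand PD-L1, was 1.70 and 1.40. Cd86 was 0.544 in 2VO and 0.860 in Sham. Class I-like genes outside the RT1 names were higher in 2VO in 3 of 3 measured cases, where 58.7% of all measured genes were. Their log2 ratios were only 0.10 to 0.21. Fcgrt, the neonatal Fc receptor chain that pairs with B2m, was 10.3 in 2VO and 8.74 in Sham. Receptors for class I summed to 0.515 units in 2VO and 1.13 in Sham over 7 genes, with 0 measured; Pirb, which binds class I on myeloid cells and neurons, was 0.0512 in 2VO and 0.340 in Sham.

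In the mouse, 40 of 52 members were listed above 0 and 12 reached 1 unit, against 43 and 27 in 2VO and 45 and 28 in Sham. As shares, 23.1% of the members reached 1 unit in the mouse, 51.9% in 2VO and 53.8% in Sham, beside 36.8%, 44.6% and 44.3% of all genes in those tables. B2m was 49.8 units, and the classical heavy chains H2-D1 and H2-K1 were 11.7 and 10.3. Among non-classical genes H2-T22, a ligand of some gamma-delta T cells, was 5.63, H2-T23 was 3.48, H2-T24 was 1.56 and H2-Q4 was 1.51. The loading genes Tapbp, Tap2 and Tap1 were 6.59, 3.52 and 1.04. H2-Ke6 was 15.5. The other 24 class I genes were below 1 unit and 11 of them were listed at 0, among them 5 of the 6 H2-M10 genes.

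Class II genes and the 5 T cell members were low in the mouse. H2-DMa, at 4.02 units, was the 1 class II gene to reach 1 unit, and H2-DMb1 was 0.528. H2-Aa, H2-Ab1 and H2-Eb1 were 0.209, 0.212 and 0.246, and Cd74 was 0.547. Ciita was 0.242 and Nlrc5 0.147. All 5 T cell members were below 0.1 units, from 0.0160 for Cd3e to 0.0547 for Cd3g, with Cd4 at 0.0440. Of the other T cell genes listed, 1 reached 1 unit in the mouse. It was Zap70, at 2.82 units against 0.468 in 2VO and 0.633 in Sham. Cd3e and Cd4 stood above 1 unit in both rats and near 0 in the mouse. Species, age, library and annotation differ together between mouse and rats, so these differences cannot be told apart from any of them.

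Rat genes were set beside mouse genes of the same symbol, of the same MHC chain or named as a synonym in the RefSeq table, which gave 28 pairs. H2-T24 and RT1-T18 each stand in 2 of these pairs. The mouse value lay below both rats in 15 pairs and above both in 7. Over the 16251 genes with the same symbol in both species it lay below both rats in 49.1% and above both in 35.5%, so the count below is near that of genes at large. RT1-M3-1 was 6.998 units in 2VO and 8.65 in Sham, and H2-M3 0.886 in the mouse. RT1-S3 was 6.33 and 5.45, and H2-T23 3.48. Tap2 was higher in the mouse, at 3.52 units against 2.75 in 2VO and 2.72 in Sham. By rank among genes above 0 the median member stood at percentile 45.1 in 2VO, 45.5 in Sham and 32.6 in the mouse. Among genes at 1 unit or more the order turned, with 17.8 in 2VO, 25.6 in Sham and 30.9 in the mouse; if the units are not per transcript length these ranks also carry length. The members held 0.0604% of the summed values in 2VO, 0.0727% in Sham and 0.0449% in the mouse.

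**Figure D5:**
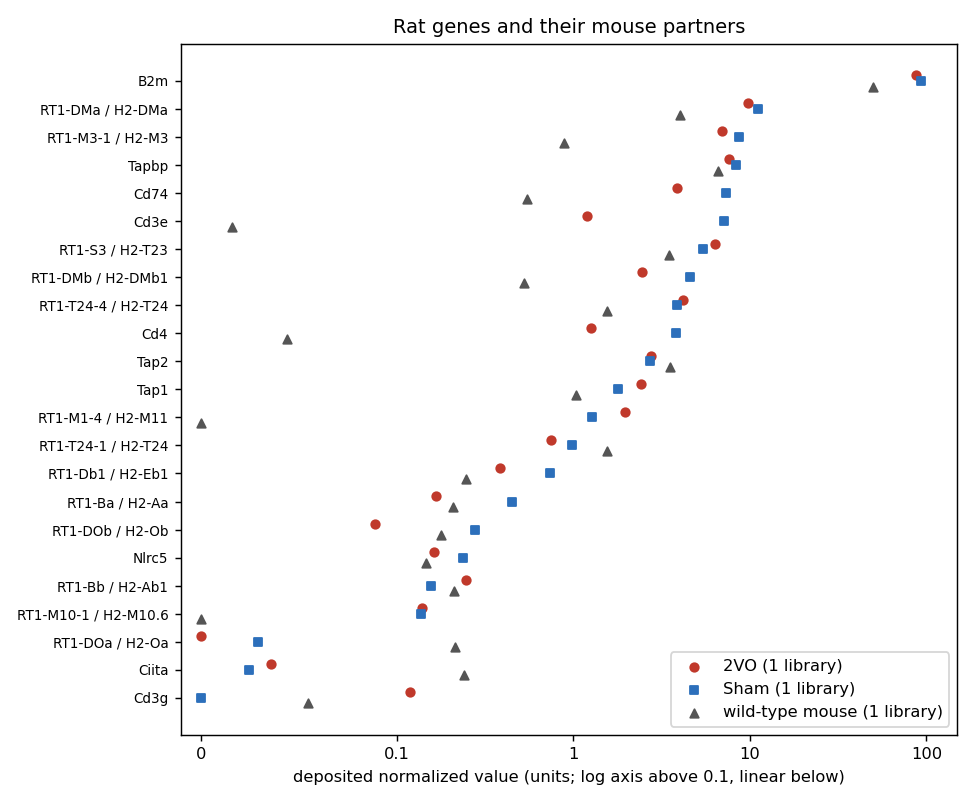
Deposited values of rat members and their mouse partners in the 2VO rat (red circles), the Sham rat (blue squares) and the wild-type mouse (grey triangles), ordered by the Sham value, on an axis that is logarithmic above 0.1 units and linear below; pairs under 0.1 units in all 3 libraries are left out. For Cd3e and Cd4 the mouse lies near 0 and both rats above 1 unit, and for Tap2 and Ciita the mouse lies to the right of both rats.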

How the data were processed

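Total RNA from hippocampus was made into TruSeq RNA v2 libraries, per the labels' protocols, and the 3 libraries were grouped by their titles. The deposited tables hold 1 normalized expression signal per gene, without a named unit or depth, per the file headers. Per the submitters' processing notes, the builds mRatBN7.2 and GRCm39 and the tools HISAT2 2.1.0, fastp 0.21.0 and DESeq2 were used, with no role stated; no source used here names the quantifier or annotation. The authors deposited no counts in the files used here, so no counting interval is given.

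Members were found by name, ignoring case. They, the gene lists and the motifs were chosen with earlier results of these data known. Named were the 12 members without prefix, RT1- genes at 1 unit or more in a rat or on average, H2- genes at 1 unit or more, and up to 4 genes per other list; further genes were named after their values were seen. Values were compared as deposited. Ratios used 1 added unit and a mean of at least 1 unit, and the alternatives are given in the closing section. The calculation was tested on simulated data. All 52 rat members matched a symbol of the RefSeq table for GRCr8 and 44 had a promoter there; that assembly differs from the named build, so coordinates belong to the promoter sequences only. Motifs were matched exactly on both strands. Python 3.11.15 with pandas 2.3.3, numpy 2.4.6, statsmodels 0.14.6 and matplotlib 3.10.9 was used.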

Additional observations from a re-analysis of the deposited data

How the results depend on the processing

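No replicate could be left out and no value has a replicate check, and the unknown depth limits the values under 1 unit most. No paired analysis was possible because each group holds 1 library. A value counted as moved when it shifted by more than 0.24 log2 units, the SD over all measured genes. The class I median of 0.015 turned to -0.020 with equal upper quartiles, -0.012 by median of ratios, -0.0081 scaled to the sum less the 50 most abundant genes, -0.020 by lowess centring, -0.0040 without a filter and -0.27 over the 7 genes averaging 5 units or more. The class II median of -0.69 became -0.31 with 4 units added, -0.20 over all 10 genes without a filter and -0.18 for RT1-DMa, the 1 gene averaging 5 units or more. The T cell median of -1.50 over Cd3e and Cd4 became -1.90 with 0.25 units added, -0.84 with 4 added and -0.051 over all 5 genes without a filter; neither reached a mean of 5 units. The count of members at least 1.5-fold higher, 1 as reported, was 0 under upper-quartile, median-of-ratios and lowess scaling, with 4 units added and at a mean of 5 units, and 3 with 0.25 added. The 6 members at least 1.5-fold lower became 1 with 4 units added and 2 at a mean of 5 units, and the 2 at least 2-fold lower became 1 and 0. Among genes at 1 unit or more the median percentile of the members was 17.8 in 2VO, 25.6 in Sham and 30.9 in the mouse, which reversed the order of rats and mouse. Over the 6 alternatives that can move a single gene's ratio, Cd3e was past 1.5-fold in 6, with log2 ratios of -2.35 to -1.10, and Cd4 in 5, from -1.44 to -0.58. Leaving out members that overlap another member, an alternative added after the data were seen, gave a class I median of 0.074 over 12 genes.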

Other observations

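In the RefSeq order of GRCr8, Cd3g, Cd3d and Cd3e lie side by side, followed by Mpzl2 and Mpzl3. Mpzl2, the next gene after Cd3e, was 0.0403 units in 2VO and 0.0512 in Sham, and Mpzl3 was 0.942 and 0.882. Beside Cd4, P3h3 was 30.5 units in 2VO and 40.3 in Sham, Gpr162 was 52.9 and 46.9, Lag3 was 0.0976 and 0.0674 and Ptms was 323 and 407. These genes were looked up after the values of Cd3e and Cd4 were seen.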
